A study of Mus musculus with 16 samples.

Results

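The Toll-like receptor and NF-kB pathway was followed here through 40 genes chosen by symbol, with earlier results of these data known. They were receptors, adaptors, signalling kinases and ligases, NF-kB subunits, and inhibitors. A gene was taken as measured where a probe set of the array named it and no other gene, and where several did, the brightest on average was used. By that rule 34 of the 40 members were measured, out of 18193 genes tested. The other 6 (1 receptor, 1 adaptor, 3 signalling kinases or ligases and 1 NF-kB subunit) were not analysed here.

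Toll-like receptors are membrane proteins that bind molecules of bacteria and viruses. Lipopolysaccharide (LPS), the endotoxin of Gram-negative bacteria, is handed by the serum protein LBP and the co-receptor CD14 to a complex of TLR4 and MD-2, and the adaptors MyD88 and TRIF then pass the signal to IRAK kinases, TRAF ubiquitin ligases, TAK1 and the IkB kinases. These kinases mark the IkB proteins for destruction and so free NF-kB dimers to enter the nucleus, where their targets include genes for several of their own inhibitors. In the heart, cardiomyocytes, endothelial cells, fibroblasts and resident leukocytes carry parts of the pathway, and the adenosine 2A receptor (A2AR), which raises cAMP, is known for damping it in leukocytes.

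RNA came from the ventricular myocardium of male mice aged 14 weeks on a CD1 background, wild-type littermates or mice lacking the A2AR (A2AR KO), bred in 1 series from a sub-colony of the original knockout line. The mice were injected once into the peritoneum, with E. coli LPS at 20 mg/kg or with as much sterile saline, and the samples are labelled 24 h. Crossing genotype with injection gave 4 groups of 4 samples with 1 array each, and strain, sex and age were the same for all 16. The transcript of the A2AR was not analysed here, so the genotypes rest on the labels, which name PCR of tail tissue. Nothing in the labels says how many animals or litters stand behind the arrays of a group beyond their number, so p-values measure the spread between these samples.

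Values are log2 probe set levels on the deposited scale, a difference of 1 being a doubling. Levels of different probe sets cannot be set against each other, so each gene was compared only with itself. The array medians ran from 4.62 to 4.67, and the median over probe sets, 4.66, serves as a rough mark of dim signal. Group levels of Ly96 lay under it in all 4 groups, those of Tlr1 in 3 groups, those of Nfkbie after saline in both genotypes, and those of Tlr7, Ikbke, Rel and Bcl3 in 1 saline group each, so that the size of their changes depends on the background. Cardiomyocyte markers were high on every array (list means of 13.42 to 13.98), as the tissue label says. Skeletal muscle markers had list means of 5.88 and 7.57 on wild-type saline arrays 1 and 4 and of 3.75 to 3.97 on the others. All 5 measured B cell markers lay under 4.66 in every group, and 5 of 9 T and NK cell markers did (Cd3d, Cd3g, Nkg7, Ncr1 and Klrd1), while Cd3e, Cd8a, Cd4 and Gzma lay above it in every group.

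Promoters of 4 members are shown first because these genes, a receptor, an NF-kB subunit and 2 inhibitors, rose with LPS and their promoters hold the kB consensus, the short DNA motif to which NF-kB dimers bind. Each run gives the 250 bases before the most upstream RefSeq start (GRCm38.p6), 5' to 3' on the strand of the gene, with the kB consensus in capitals wherever it matched on either strand, overlapping matches joined.
Tlr2 promoter, chr3:83841609-83841858, minus strand: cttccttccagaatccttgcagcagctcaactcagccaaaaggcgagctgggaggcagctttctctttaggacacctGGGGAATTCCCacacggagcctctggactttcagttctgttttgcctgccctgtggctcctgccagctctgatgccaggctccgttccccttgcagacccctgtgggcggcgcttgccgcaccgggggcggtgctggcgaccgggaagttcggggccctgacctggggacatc
Nfkb2 promoter, chr19:46304487-46304736, plus strand: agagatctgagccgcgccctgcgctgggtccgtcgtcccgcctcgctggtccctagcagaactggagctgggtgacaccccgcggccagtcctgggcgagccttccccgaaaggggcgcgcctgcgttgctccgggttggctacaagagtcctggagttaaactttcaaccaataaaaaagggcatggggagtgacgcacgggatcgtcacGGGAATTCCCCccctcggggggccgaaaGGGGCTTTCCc
Nfkbia promoter, chr12:55492648-55492897, minus strand: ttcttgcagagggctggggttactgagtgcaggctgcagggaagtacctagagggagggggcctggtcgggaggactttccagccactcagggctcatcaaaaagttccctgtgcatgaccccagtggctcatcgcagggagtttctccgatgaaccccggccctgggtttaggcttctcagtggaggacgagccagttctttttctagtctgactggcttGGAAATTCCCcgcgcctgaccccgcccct
Tnfaip3 promoter, chr10:19015411-19015660, minus strand: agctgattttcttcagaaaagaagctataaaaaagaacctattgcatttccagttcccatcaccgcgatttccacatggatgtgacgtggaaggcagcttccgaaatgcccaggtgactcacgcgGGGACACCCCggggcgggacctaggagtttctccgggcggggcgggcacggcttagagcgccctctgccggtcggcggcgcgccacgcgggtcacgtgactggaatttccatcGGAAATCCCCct
The Tlr2 match lies from -173 to -163 relative to the start, in 2 overlapping forms. Nfkb2 has matches from -39 to -29 and from -11 to -2. The Nfkbia match lies from -29 to -20, and those of Tnfaip3 from -125 to -116 and from -12 to -3. Further members with a match were Tlr3 (GGGAGTTTCC), Nfkbie (GGGGGATTCC) and Tnip1, whose 3 overlapping forms begin with GGGGAATTCC. Among the 21 members called higher after LPS in both genotypes, 16 had a promoter in the RefSeq table and 7 of these (43.8%) held a match, against 3 of 9 other members (33.3%) and 8.41% of the 14453 promoters of genes named on the array. The 3 other members were Irak1, Map3k7 and Rel, none of which was called with LPS. A match is a description of these letters and not a binding site, and the members' share was not tested.

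The comparison of LPS with saline asks how far the transcripts of the pathway moved in hearts with and without the A2AR. In wild-type hearts 23 of 34 members rose and 0 fell, and in knockout hearts 24 rose and 0 fell (limma, Benjamini-Hochberg adjusted p under 0.05 over all genes tested), where 9.28% and 11.4% of all genes tested rose. No member fell in both, as 9.2% of all genes did, and 7.35% of all genes rose in both. An unadjusted p under 0.05 was found for 25 and 27 members and for 30.9% and 35.8% of all genes. The LPS arrays lay above all saline arrays for 22 and 25 members, against 10.9% and 12.3% of all genes. The median change of the members was 1.18 in wild-type and 1.37 in knockout hearts, beside -0.00 and -0.02 over all genes. Of the called members, 21 were shared, which is 91.3% of the wild-type and 87.5% of the knockout calls. Tlr1 and Ikbkg were called in wild-type hearts alone, and Tirap, Ticam1 and Ikbkb in knockout hearts alone. Those 5 differences between genotypes were themselves tested as interactions, and none passed. Members called in neither genotype were Tlr4, Tlr7, Ly96, Nod1, Irak1, Traf6, Map3k7 and Rel.

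**Figure D1:**
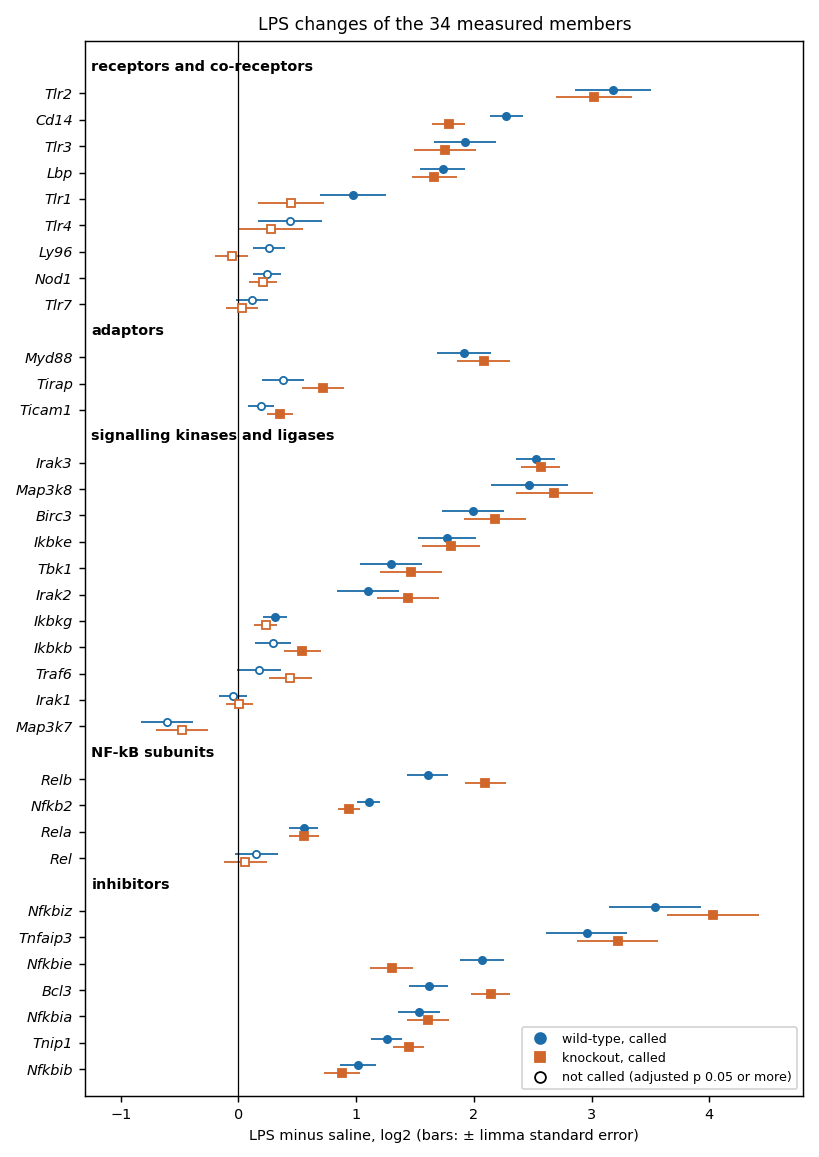
LPS minus saline on the log2 scale for each of the 34 measured members, grouped by role, in wild-type (blue circles) and knockout hearts (orange squares); bars are the limma standard error and open symbols were not called. All 7 members listed as inhibitors lie to the right of 0 and are called in both genotypes, with Nfkbiz farthest. Irak1 lies within its standard error of 0 and Map3k7 to the left of it.

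Transcripts of leukocytes moved with LPS in the same hearts. Of 10 measured neutrophil markers 5 rose in each genotype (S100a8, S100a9, Ngp, Camp and Mmp8) and 0 fell, where 9.28% and 11.4% of all genes rose. Ltf, Cxcr2, Elane, Mpo and Csf3r were not called. The largest rises were those of S100a8 (4.84 and 5.57) and S100a9 (4.86 and 4.99). The list mean went from 3.91 to 4.07 on wild-type saline arrays to 5.21 to 5.77 on wild-type LPS arrays, and from 3.96 to 4.07 to 5.66 to 5.94 in knockout hearts. The neutrophil markers Camp, Cxcr2, Elane and Mpo lay under 4.66 in every group, and Mmp8 did so in all but the knockout LPS group. Of 11 macrophage and monocyte markers 3 rose in each genotype (Mpeg1, Itgam and Fcgr1) and 3 fell. Csf1r and Mrc1 fell in both, Cx3cr1 was called lower in wild-type and Lyz2 in knockout hearts. This list had list means of 6.61 to 6.77 after saline and 6.50 to 7.65 after LPS in wild-type hearts, and of 6.56 to 6.69 and 6.27 to 7.03 in knockout hearts. Apart from Gzma, the markers of other cells that were called fell, where 11.6% and 14.7% of all genes fell. Of 9 T and NK cell markers 1 rose in wild-type hearts (Gzma by 0.45) and 0 fell, and in knockout hearts 0 were called. Of 5 B cell markers 1 fell in each genotype. Of 8 skeletal muscle markers 1 fell in wild-type hearts (Actn3 by 0.51) and 0 were called in knockout hearts. Wild-type saline arrays 1 and 4 had the high list means of these markers, 5.88 and 7.57. Of 6 smooth muscle and pericyte markers 5 fell in each genotype (Tagln by 2.09 in wild-type and 1.78 in knockout hearts). Adipocyte markers fell for 3 of 4 genes in the wild-type and for 2 in the knockout comparison (Adipoq by 4.27 and 3.33). After saline their list means were already lower in knockout hearts (4.67 to 5.25) than in wild-type hearts (5.54 to 5.97). Cidec, dim in every group, was called lower by limma in knockout hearts after saline (-1.04 ± 0.13, adjusted p = 0.005). In each genotype 4 of 8 cardiomyocyte markers and 2 of 6 fibroblast markers fell, and endothelial markers fell for 3 of 8 genes in the wild-type comparison and for 4 of 8 in the other. In bulk RNA a change in the number of cells of a type and a change in RNA per cell cannot be told apart. The part of these cells in the changes of the pathway was not tested.

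Among the receptors and co-receptors, 5 of 9 measured members rose in wild-type hearts, and 4 of the 9 did so in the knockout. Tlr2, the receptor for bacterial lipoproteins, read 4.95, 5.20, 4.68 and 5.29 on the wild-type saline arrays and 7.58, 8.86, 9.15 and 7.27 on the wild-type LPS arrays. In knockout hearts it read 5.44, 5.19, 5.27 and 5.04 after saline and 8.32, 7.86, 8.73 and 8.14 after LPS. No LPS array came near a saline array, and the wild-type LPS arrays were spread more widely than those of the knockout. Tlr2 rose by 3.18 ± 0.32 (9.09-fold, adjusted p = 2.48e-06) in wild-type and by 3.02 ± 0.32 (8.13-fold, adjusted p = 3.69e-06) in knockout hearts.

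Cd14, the co-receptor that presents LPS to TLR4, rose on every LPS array. It read 5.97, 6.11, 6.11 and 6.22 after saline and 8.22, 8.53, 8.27 and 8.50 after LPS in wild-type hearts. In knockout hearts it read 5.94, 6.04, 6.43 and 6.21 after saline and 8.05, 7.61, 8.26 and 7.86 after LPS. The LPS arrays stood apart from the saline arrays, and 3 of the 4 knockout LPS arrays lay below all wild-type LPS arrays. The rise was 2.28 ± 0.14 (4.84-fold, adjusted p = 7.78e-09) and 1.79 ± 0.14 (3.45-fold, adjusted p = 1.33e-07).

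Tlr3, an endosomal receptor for double-stranded RNA, read 6.05, 6.12, 5.97 and 6.0 on wild-type saline arrays and 7.53, 8.92, 8.33 and 7.08 after LPS. In knockout hearts it read 6.13, 5.90, 5.99 and 6.14 after saline and 7.80, 7.65, 7.80 and 7.92 after LPS, so its spread after LPS was far wider in wild-type hearts (SD 0.82) than in knockout hearts (SD 0.11, n = 4 each). Its rise was 1.93 ± 0.26 and 1.75 ± 0.26, with equal errors because the fit shares the spread of a gene over all 4 groups. Lbp, the serum protein that carries LPS to CD14, rose by 1.74 ± 0.19 and 1.66 ± 0.19, from 6.44 to 6.50 on wild-type saline arrays to 7.71 to 8.78 after LPS. All 4 of these genes were above every saline array on every LPS array of their genotype.

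Tlr4 itself, the receptor that recognises LPS, was not called. Its wild-type values were 6.68, 6.71, 6.63 and 6.61 after saline and 7.51, 7.35, 6.85 and 6.69 after LPS, a change of 0.44 ± 0.27 (adjusted p = 0.303). Its knockout values were 6.35, 6.48, 6.60 and 6.34 after saline and 7.05, 5.58, 7.19 and 7.06 after LPS, a change of 0.28 ± 0.27 (adjusted p = 0.515). Knockout LPS array 2 stood alone below all saline arrays. Without it the changes were 0.44 (adjusted p = 0.0410) and 0.66 (adjusted p = 0.00702), and both were called. The wild-type change stayed as it was, and its p-value fell because the groups share the estimate of the spread. Of the 4 probe sets of Tlr4, tested with every probe set on its own, a single other one was called, with changes of 0.95 ± 0.19 (adjusted p = 0.00190) and 0.69 ± 0.19 (adjusted p = 0.0141).

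The other receptors had smaller changes. Tlr1, a partner of TLR2, rose by 0.97 ± 0.28 (adjusted p = 0.0204) in wild-type hearts, where array 4 read 6.27 and the other LPS arrays 4.39 to 4.88, and without that array the change was 0.57 (adjusted p = 0.0147). In knockout hearts its change was 0.45 ± 0.28 (adjusted p = 0.286, and 0.0341 without the same wild-type array, which enters the shared spread). Ly96, which encodes MD-2, had changes of 0.26 ± 0.14 and -0.06 ± 0.14, Nod1, a cytosolic sensor of bacterial peptidoglycan, of 0.24 ± 0.12 and 0.21 ± 0.12, and Tlr7, an endosomal receptor for single-stranded RNA, of 0.11 ± 0.13 and 0.03 ± 0.13. None of these was called.

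**Figure D2:**
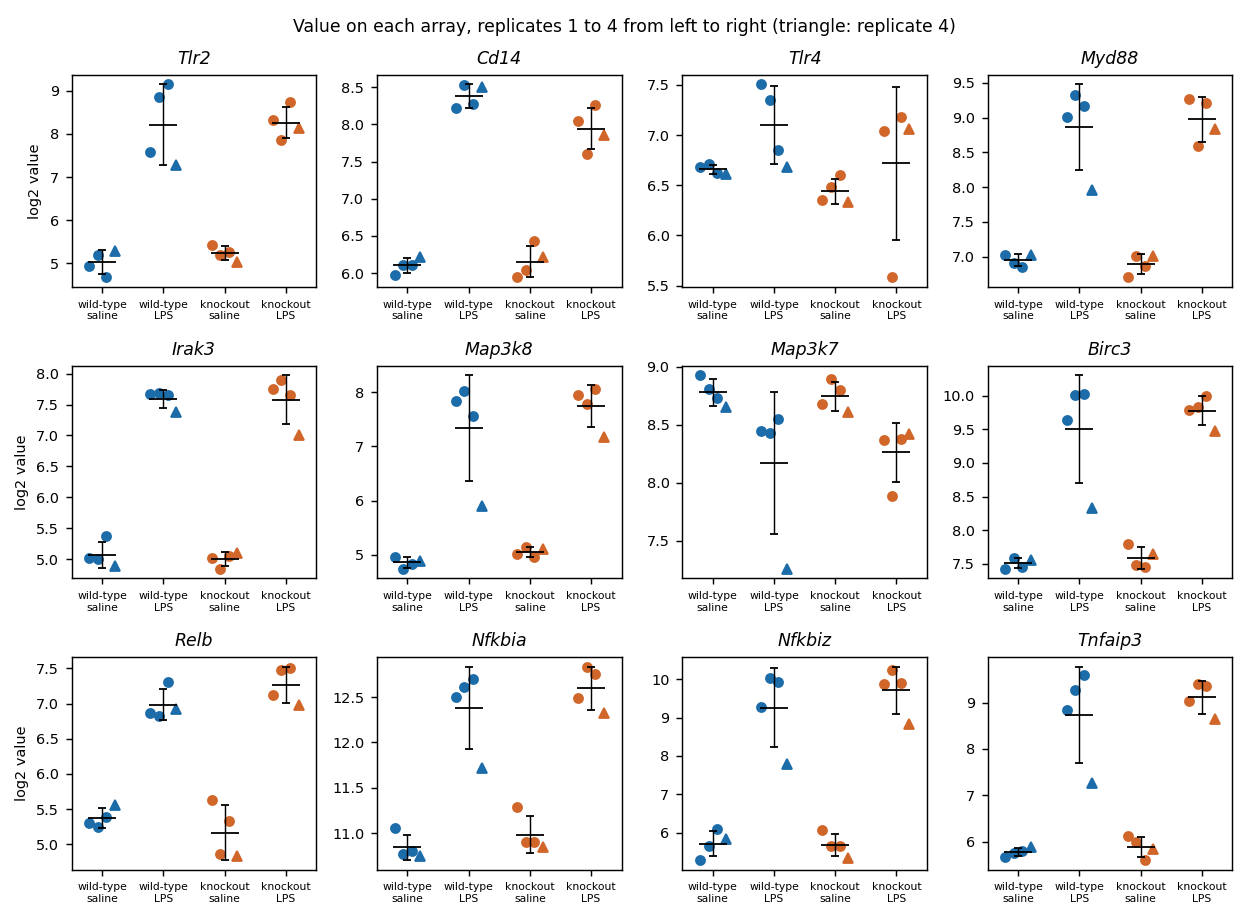
Log2 value of 12 members on each of the 16 arrays, with replicates 1 to 4 of a group from left to right and replicate 4 as a triangle; black bars are the group mean ± SD (n = 4). The LPS arrays lie above all saline arrays of their genotype for Tlr2, Cd14, Myd88, Irak3, Map3k8, Birc3, Relb, Nfkbia, Nfkbiz and Tnfaip3, and for Tlr4 knockout LPS array 2 (5.58) lies under all others.

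Of the adaptors, Myd88 rose in both genotypes. Myd88, the adaptor shared by most Toll-like receptors, read 7.03, 6.90, 6.85 and 7.02 after saline and 9.01, 9.33, 9.17 and 7.97 after LPS in wild-type hearts. In knockout hearts it read 6.70, 7.01, 6.87 and 7.01 after saline and 9.26, 8.59, 9.22 and 8.84 after LPS. The groups did not overlap, and wild-type LPS array 4 was the lowest of the LPS arrays. The rise was 1.92 ± 0.23 (3.78-fold, adjusted p = 1.28e-05) and 2.08 ± 0.23 (4.24-fold, adjusted p = 4.50e-06).

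Tirap, the bridge between TLR4 and MyD88, read 7.01, 7.20, 7.07 and 7.27 on wild-type saline arrays and 7.67, 7.84, 7.67 and 6.87 after LPS, so that array 4 lay below the saline arrays. Its wild-type change was 0.38 ± 0.18 (adjusted p = 0.161), and without array 4 it was 0.59 (adjusted p = 0.00249). In knockout hearts it rose by 0.72 ± 0.18 (adjusted p = 0.00618), from 6.90, 7.15, 7.26 and 6.82 after saline to 8.00, 7.58, 7.83 and 7.61. Ticam1, which encodes the adaptor TRIF of TLR3 and TLR4, read 6.47, 6.44, 6.57 and 6.48 after saline and 6.65, 6.58, 6.49 and 6.99 after LPS in wild-type hearts, and 6.20, 6.22, 6.17 and 6.11 after saline and 6.49, 6.59, 6.37 and 6.67 after LPS in knockout hearts. It rose by 0.35 ± 0.11 in knockout hearts (adjusted p = 0.0254, and 0.0544 without knockout LPS array 2) and changed by 0.19 ± 0.11 in wild-type hearts (adjusted p = 0.266). Its knockout saline arrays (6.11 to 6.22) lay below all wild-type saline arrays (6.44 to 6.57).

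The signalling kinases and ligases split by gene: 7 of 11 rose in each genotype, 6 of them in both. Map3k8, the kinase TPL2 that leads from the IkB kinases to ERK, read 4.97, 4.75, 4.84 and 4.90 after saline and 7.85, 8.02, 7.57 and 5.90 after LPS in wild-type hearts. On knockout arrays it read 5.01, 5.15, 4.96 and 5.11 after saline and 7.96, 7.78, 8.05 and 7.18 after LPS. Wild-type LPS array 4 stood well below the other LPS arrays and still above the saline arrays. Map3k8 rose by 2.47 ± 0.33 (5.54-fold, adjusted p = 3.95e-05) and by 2.68 ± 0.33 (6.43-fold, adjusted p = 1.43e-05).

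Irak3, an inactive kinase of the IRAK family that restrains the pathway (IRAK-M), read 5.02, 5.0, 5.37 and 4.89 after saline and 7.67, 7.69, 7.65 and 7.38 after LPS in wild-type hearts. The knockout arrays read 5.03, 4.85, 5.05 and 5.10 after saline and 7.76, 7.89, 7.65 and 7.0 after LPS. Array 4 was the lowest LPS array in both genotypes, and no LPS array overlapped the saline arrays. The rise was 2.53 ± 0.16 (5.76-fold, adjusted p = 1.33e-08) and 2.57 ± 0.16 (5.92-fold, adjusted p = 1.06e-08). Irak2, another member of the same family, rose by 1.10 ± 0.26 and 1.44 ± 0.26. Its wild-type LPS array 4 (5.87) fell within its saline range of 5.68 to 5.93. Irak1 had changes of -0.04 ± 0.12 and 0.01 ± 0.12 and was not called.

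Birc3, the ubiquitin ligase cIAP2, rose from 7.43, 7.59, 7.46 and 7.56 after saline to 9.64, 10.01, 10.03 and 8.34 after LPS in wild-type hearts, by 1.99 ± 0.26 (adjusted p = 4.00e-05). In knockout hearts it rose from 7.80, 7.48, 7.45 and 7.65 to 9.78, 9.84, 9.997 and 9.48, by 2.18 ± 0.26 (adjusted p = 1.34e-05). Again array 4 was the lowest of each LPS group. The IkB kinase relatives that serve the TRIF branch rose too, Ikbke by 1.77 ± 0.25 and 1.81 ± 0.25 and Tbk1 by 1.29 ± 0.26 and 1.46 ± 0.26. For Ikbke, in contrast, wild-type LPS array 4 was the highest of its group, at 7.40 against 6.0 to 6.48.

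Ikbkb, a catalytic subunit of the IkB kinase, rose by 0.54 ± 0.16 in knockout hearts (adjusted p = 0.0159, and 0.0509 without knockout LPS array 2) and changed by 0.29 ± 0.16 in wild-type hearts (adjusted p = 0.220). Ikbkg, the regulatory subunit NEMO, rose by 0.31 ± 0.10 in wild-type hearts (adjusted p = 0.0356), a call that was lost in 12 of 29 alternative settings, and changed by 0.23 ± 0.10 in knockout hearts (adjusted p = 0.103). Traf6, the ubiquitin ligase downstream of the IRAKs, had changes of 0.17 ± 0.19 and 0.44 ± 0.19 and was not called.

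Map3k7, which encodes TAK1, the kinase upstream of the IkB kinases, was the member with the lowest change in both genotypes. It read 8.93, 8.81, 8.73 and 8.66 after saline and 8.45, 8.43, 8.55 and 7.26 after LPS in wild-type hearts, and 8.68, 8.89, 8.81 and 8.61 after saline and 8.37, 7.89, 8.38 and 8.42 after LPS in knockout hearts. Every LPS array lay below every saline array of its genotype, a separation downward that 11.9% and 16.1% of all genes showed. Its changes of -0.61 ± 0.22 (adjusted p = 0.0592) and -0.48 ± 0.22 (adjusted p = 0.122) did not pass. The fall was called in 5 of 29 alternative settings in wild-type hearts (lowest adjusted p = 0.0345) and in 4 of 29 in knockout hearts, so the count of 0 falling members does not hold there. Without wild-type LPS array 4 the changes were -0.30 (adjusted p = 0.0879) and -0.48 (adjusted p = 0.00439), the knockout p-value falling through the shared spread.

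Of the NF-kB subunits, 3 of 4 measured members rose in both genotypes. Relb, the partner of p52 in the non-canonical branch, read 5.30, 5.24, 5.39 and 5.56 after saline and 6.87, 6.82, 7.31 and 6.93 after LPS in wild-type hearts. Its knockout values were 5.63, 4.87, 5.34 and 4.83 after saline and 7.12, 7.47, 7.50 and 6.98 after LPS. The groups did not overlap. Relb rose by 1.61 ± 0.18 (3.05-fold, adjusted p = 5.79e-06) and 2.10 ± 0.18 (4.28-fold, adjusted p = 2.64e-07).

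Nfkb2, the gene of p100 and its product p52, had small spreads and rose by 1.11 ± 0.10 (2.15-fold, adjusted p = 3.72e-07) and 0.94 ± 0.10 (1.92-fold, adjusted p = 2.24e-06). Its arrays read 6.80, 6.66, 6.52 and 6.72 after saline and 7.63, 7.87, 7.81 and 7.82 after LPS in wild-type hearts, and 6.83, 6.68, 6.79 and 6.89 after saline and 7.76, 7.77, 7.64 and 7.78 after LPS in knockout hearts. Rela, the p65 subunit of the canonical dimer, rose by 0.55 ± 0.13 (1.47-fold, adjusted p = 0.00397) and 0.56 ± 0.13 (1.47-fold, adjusted p = 0.00312). Its arrays read 8.30, 8.46, 8.53 and 8.50 after saline and 8.97, 8.88, 9.15 and 8.99 after LPS in wild-type hearts, and 8.54, 8.46, 8.33 and 8.31 after saline and 9.07, 9.30, 8.87 and 8.63 after LPS in knockout hearts. Rel, the c-Rel subunit of lymphoid and myeloid cells, had changes of 0.15 ± 0.18 and 0.06 ± 0.18 and was not called.

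All 7 members listed as inhibitors rose in both genotypes, and each kept its call in all alternative settings. None of these settings rested on the second probe set of Nfkbie alone, which was not called in wild-type hearts. The list includes Nfkbiz and Bcl3, whose nuclear IkB proteins are not among the cytoplasmic ones that hold NF-kB in place. Irak3 was listed with the kinases. Whether the listed transcripts inhibited the pathway here was not tested. Nfkbiz, a nuclear IkB protein that adjusts the choice of NF-kB targets, had the largest change of all members. It read 5.29, 5.66, 6.09 and 5.83 after saline and 9.28, 10.03, 9.92 and 7.80 after LPS in wild-type hearts, and 6.07, 5.65, 5.66 and 5.36 after saline and 9.88, 10.24, 9.91 and 8.83 after LPS in knockout hearts. Array 4 was the lowest LPS array in both genotypes and still well above the saline arrays. The rise was 3.54 ± 0.39 (11.6-fold, adjusted p = 5.91e-06) and 4.03 ± 0.39 (16.4-fold, adjusted p = 1.23e-06).

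Tnfaip3, the ubiquitin-editing enzyme A20 that shuts the pathway down, read 5.67, 5.77, 5.79 and 5.89 after saline and 8.84, 9.28, 9.59 and 7.26 after LPS in wild-type hearts. On knockout arrays it read 6.12, 5.99, 5.61 and 5.84 after saline and 9.04, 9.40, 9.37 and 8.65 after LPS. It rose by 2.96 ± 0.35 (7.78-fold, adjusted p = 1.07e-05) and 3.22 ± 0.35 (9.34-fold, adjusted p = 3.65e-06). Its partner Tnip1 (ABIN1) rose by 1.26 ± 0.13 and 1.45 ± 0.13.

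Bcl3, a nuclear IkB protein that binds p50 and p52, read 4.84, 4.35, 4.82 and 5.14 after saline and 6.60, 6.47, 6.41 and 6.15 after LPS in wild-type hearts. The knockout arrays read 4.52, 4.62, 4.67 and 4.78 after saline and 6.78, 7.18, 6.76 and 6.44 after LPS. The LPS arrays of each genotype lay above its saline arrays, and 3 of the 4 knockout LPS arrays lay above all wild-type LPS arrays. The rise was 1.62 ± 0.17 (3.07-fold, adjusted p = 2.62e-06) and 2.14 ± 0.17 (4.42-fold, adjusted p = 9.86e-08).

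Of the cytoplasmic IkB proteins that hold NF-kB in place, Nfkbia (IkB alpha) read 11.05, 10.78, 10.80 and 10.75 after saline and 12.50, 12.61, 12.70 and 11.72 after LPS in wild-type hearts. It rose by 1.54 ± 0.18 (2.90-fold, adjusted p = 9.96e-06) and, in knockout hearts, by 1.61 ± 0.18 (3.06-fold, adjusted p = 5.08e-06). The knockout arrays read 11.29, 10.90, 10.90 and 10.85 after saline and 12.49, 12.83, 12.75 and 12.32 after LPS. Replicate 1 was the highest saline array in both genotypes, and no LPS array overlapped the saline arrays. Nfkbib (IkB beta) rose by 1.02 ± 0.15 and 0.88 ± 0.15. Nfkbie (IkB epsilon) read 3.91, 3.70, 3.65 and 3.68 after saline and 6.08, 5.62, 5.52 and 5.99 after LPS in wild-type hearts, and 4.32, 4.11, 3.52 and 3.80 after saline and 4.73, 5.44, 5.46 and 5.32 after LPS in knockout hearts. On the probe set used Nfkbie rose by 2.07 ± 0.18 (4.20-fold) and by 1.30 ± 0.18 (2.46-fold), and all wild-type LPS arrays lay above all knockout LPS arrays. On its second probe set, which was dim as well, the wild-type change was 0.21 ± 0.10 and the knockout change 0.54 ± 0.10.

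The LPS arrays of a group did not share 1 level of the pathway. Wild-type LPS array 4 was the lowest of its group for 21 of 34 members and the highest for 6 (Tlr1, Ly96, Lbp, Ticam1, Irak1 and Ikbke). Over the 21 members called in both genotypes, the median rise above the mean of the saline arrays was 1.76, 1.87, 1.91 and 1.15 on wild-type LPS arrays 1 to 4 and 1.89, 1.93, 2.04 and 1.73 on knockout LPS arrays 1 to 4. Knockout LPS array 4 was the lowest of its group for 13 of those 21 members and wild-type LPS array 4 for 14. The same 2 arrays had the fewest genes more than 2-fold away from the saline mean, 913 in wild-type and 972 in knockout hearts, against 1121 to 1670 and 1331 to 2215 on the others. Wild-type LPS array 4 stood apart in marker lists as well. Its macrophage and monocyte list mean, 7.65, was the highest of all arrays. Its endothelial list mean was 8.54 against 7.72 to 7.97 on the other wild-type LPS arrays and 8.20 to 8.59 after saline, and its fibroblast list mean was 9.99 against 8.83 to 9.52 and 10.03 to 10.19 after saline. For adipocytes it was 4.61 against 3.91 to 3.98 and 5.54 to 5.97 after saline, and for smooth muscle and pericytes 8.78 against 7.97 to 8.41 and 9.56 to 9.97 after saline. Without wild-type LPS array 4, 24 members were called in wild-type and 26 in knockout hearts. Knockout LPS array 2 had the lowest list means of all 16 arrays for macrophages and monocytes (6.27), fibroblasts (8.58) and cardiomyocytes (13.42). Its list means for neutrophils (5.94), T and NK cells (4.52), B cells (4.20) and smooth muscle and pericytes (8.85) were the highest of its group. The part of these cells in the values of either array was not tested.

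**Figure D3:**
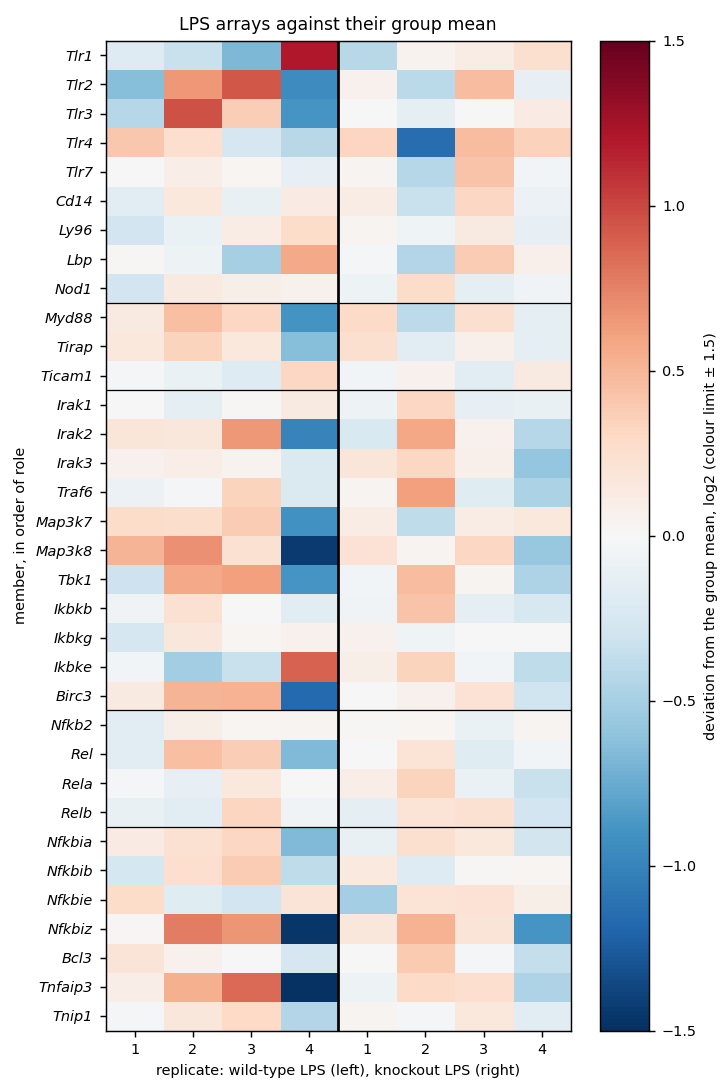
Difference of each LPS array from the mean of its group, on the log2 scale, for the 34 members in order of role (horizontal lines part the roles, the vertical line the genotypes). Wild-type LPS array 4 is blue (low) for Map3k8, Birc3, Nfkbiz and Tnfaip3 and red (high) for Tlr1, Lbp and Ikbke, and knockout LPS array 2 is blue for Tlr4.

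Members with several probe sets allowed the same gene to be read more than once on the same arrays, though not always from the same part of its transcripts. The 34 members had 76 probe sets, and 19 members had more than 1. All probe sets of Nfkbia (5), Nfkbiz (3), Tnfaip3 (2), Birc3 (2), Tbk1 (2), Irak3 (2) and Tlr3 (2) were called higher in both genotypes when every probe set was tested on its own. Their sizes still differed, from 1.39 to 3.54 in wild-type hearts for Nfkbiz and from 1.21 to 2.96 for Tnfaip3. For Ikbkb 1 of 5 probe sets was called, higher in knockout hearts, where the 5 changes ran from -0.19 to 0.54, and the mean over its probe sets changed by 0.19 there (adjusted p = 0.0365). Of the 6 probe sets of Ikbkg 1 was called, higher in wild-type hearts, where all 6 changes lay between 0.24 and 0.69. None of the 4 probe sets of Irak1 and none of the 5 of Traf6 was called in either genotype, and of the 6 of Map3k7 a single probe set was called, lower in wild-type hearts (-0.34 ± 0.11, adjusted p = 0.0434). The second probe set of Lbp, Nfkb2 and Nfkbib was not called in either genotype, and those of Lbp and Nfkbib had means under 4.66. That of Nfkbie, with a mean of 4.26, was called by limma in knockout hearts (0.54 ± 0.10, adjusted p = 0.000822). In wild-type hearts it was not called (0.21 ± 0.10, adjusted p = 0.175).

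**Figure D4:**
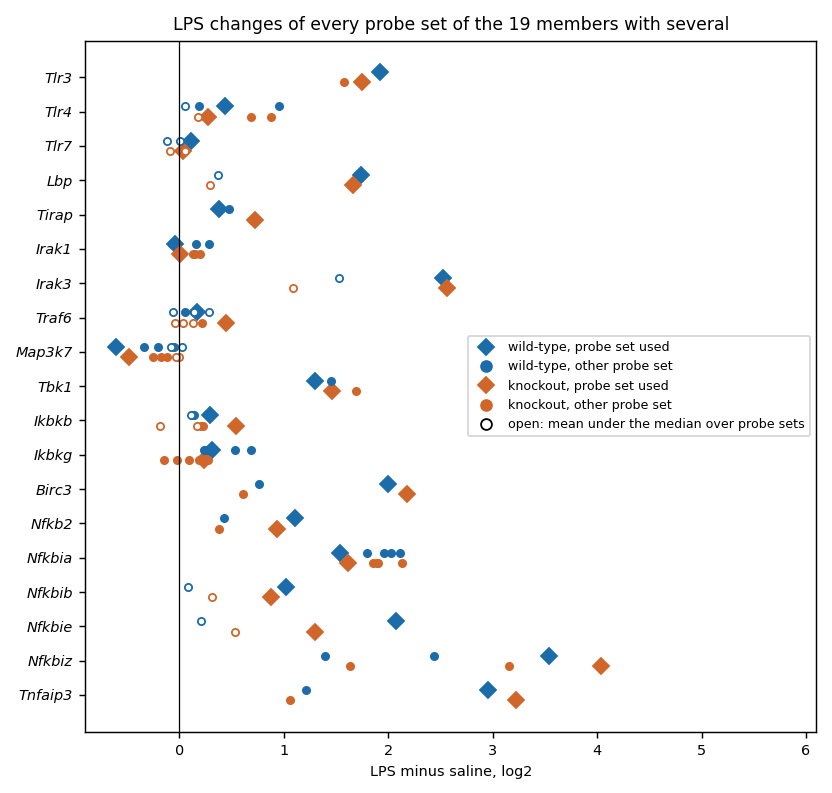
LPS minus saline on the log2 scale for every probe set of the 19 members with more than 1, in wild-type (blue) and knockout hearts (orange); diamonds are the probe sets used and circles the others, and open symbols have a mean under the median over probe sets. The 5 probe sets of Nfkbia lie together, from 1.54 to 2.12 in wild-type hearts, while those of Nfkbiz run from 1.39 to 3.54.

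The comparison of the genotypes asks whether loss of the A2AR went with other levels of these transcripts. After saline 0 of 34 members were called by limma (0.0055% of all genes were), and 1 had an unadjusted p under 0.05, against 3.48% of all genes. That member was Ticam1, lower in knockout hearts by 0.31 on the log2 scale (-0.31 ± 0.11, unadjusted p = 0.0118, adjusted p = 1). The differences of all 34 members lay between -0.31 and 0.20. Ticam1 and Tlr4 were the 2 members for which every knockout saline array lay below every wild-type saline array, which 2.08% of all genes did, and 0 members lay wholly above (1.81% of all genes).

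After LPS 0 members were called again (0.0055% of all genes were), and 4 had an unadjusted p under 0.05, against 7.56% of all genes. Nfkbie was lower in knockout hearts (-0.57 ± 0.18, 95% interval -0.96 to -0.18, unadjusted p = 0.00712). Cd14 (-0.44 ± 0.14, interval -0.74 to -0.14, unadjusted p = 0.00716) and Ly96 (-0.41 ± 0.14, interval -0.70 to -0.12, unadjusted p = 0.00912) were lower as well, and Bcl3 was higher (0.38 ± 0.17, interval 0.03 to 0.73, unadjusted p = 0.0340). Their adjusted p-values ran from 0.622 to 0.656. Nfkbie was the only member whose knockout and wild-type LPS arrays did not overlap, a separation downward that 1.18% of all genes showed, and 0 members were separated upward (1.08% of all genes).

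The difference of the LPS changes, knockout minus wild-type, is the test of whether the genotypes responded differently. By limma 0 of 34 members passed, and 0 of all genes did (0%), with a smallest adjusted p among members of 0.959. An unadjusted p under 0.05 was found for 3 members and for 4.47% of all genes. These were Nfkbie (-0.77 ± 0.26, interval -1.32 to -0.22, unadjusted p = 0.00931), Cd14 (-0.49 ± 0.20, interval -0.91 to -0.06, unadjusted p = 0.0266) and Bcl3 (0.53 ± 0.23, interval 0.03 to 1.02, unadjusted p = 0.0390). The second probe set of Nfkbie, with a mean of 4.26, gave the opposite sign (0.33, unadjusted p = 0.0319). The probe set used was itself dim, with a mean of 4.68 beside the mark of 4.66 and saline means of 3.73 and 3.94. The direction of the Nfkbie difference therefore depends on the probe set. The median difference was 0.05 over members and -0.01 over all genes, and 20 members had a positive and 14 a negative sign.

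The width of the intervals shows what 4 arrays a group could resolve. For Rela the interval of the difference ran from -0.37 to 0.38, and for Nfkb2 from -0.45 to 0.12. For members with widely spread wild-type LPS arrays it was far wider, from -0.67 to 1.66 for Nfkbiz, from -0.77 to 1.30 for Tnfaip3 and from -1.13 to 0.81 for Tlr2. These 3 intervals each held a genotype difference of 2-fold in 1 direction.

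**Figure D5:**
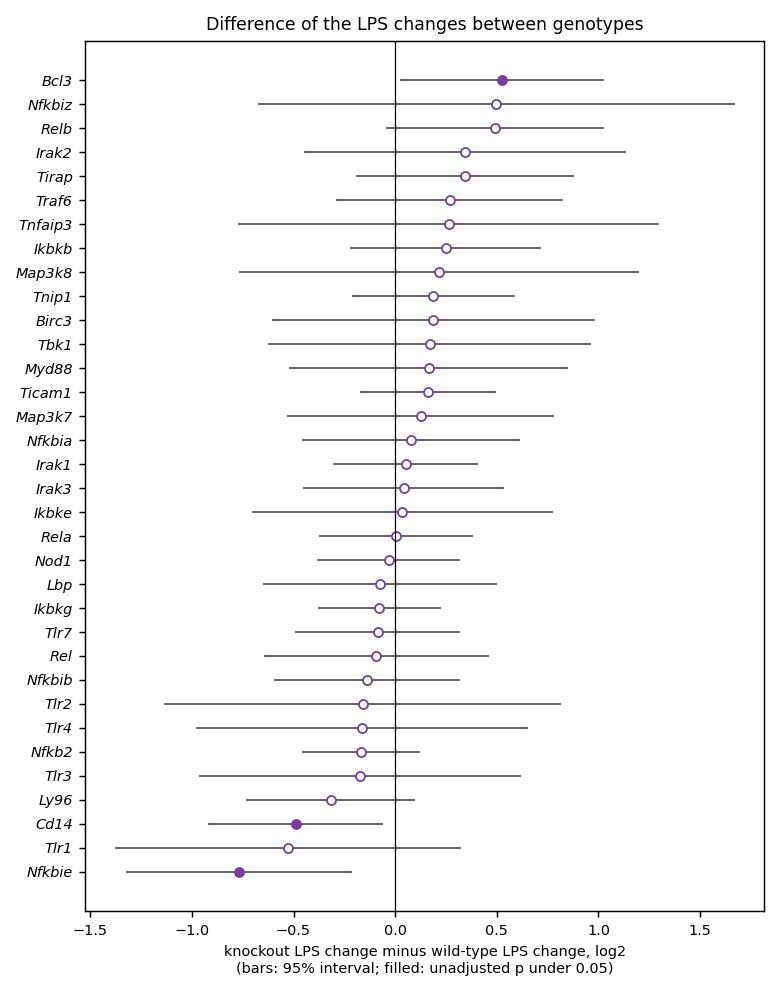
Difference of the LPS change between genotypes (knockout minus wild-type, log2) for the 34 members, with the 95% interval of limma's moderated fit; filled points have an unadjusted p under 0.05. Nfkbie and Cd14 lie left of 0 and Bcl3 right of it, and no member passed after adjustment.

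Beyond the members, 50 of 55 listed genes of the pathway were measured. In wild-type hearts 12 rose and 7 fell, and in knockout hearts 11 rose and 6 fell, beside 9.28% and 11.4% of all genes rising and 11.6% and 14.7% falling. Their median change was 0.06 in wild-type and 0.07 in knockout hearts. The 4 genes with the largest called rise in either genotype were Trim30a, an interferon-induced TRIM protein (2.06 ± 0.33 and 2.35 ± 0.33), Tifa, an adaptor that binds TRAF proteins (1.21 ± 0.30 and 1.99 ± 0.30), Zc3h12a, the RNase Regnase-1 that degrades cytokine messages (1.37 ± 0.25 and 1.53 ± 0.25), and Birc2, the ubiquitin ligase cIAP1 (1.21 ± 0.15 and 1.44 ± 0.15). In wild-type hearts alone the order differed, since Rnf31, a subunit of the linear ubiquitin ligase complex named here after its values were seen, rose by 1.27 ± 0.13 (adjusted p = 3.85e-06), above Tifa and Birc2, and by 1.26 ± 0.13 in knockout hearts. The 4 with the largest called fall in either genotype were Pdlim2, a ubiquitin ligase for p65 (-1.56 ± 0.36 and -1.49 ± 0.36), Nkiras1, a small GTPase-like binder of IkB proteins (-0.87 ± 0.13 and -0.64 ± 0.13), Ikbip (-0.79 ± 0.23 in wild-type hearts, and -0.08 ± 0.23 without a call in knockout hearts) and Ly86, the partner MD-1 of CD180 (-0.65 ± 0.15 and -0.59 ± 0.15). Pdlim2 read 6.59 to 6.71 on all wild-type saline arrays and 4.67, 4.87, 4.11 and 6.71 on the wild-type LPS arrays, so array 4 stood at the saline level. Between the genotypes 0 of the 50 genes were called by limma, with unadjusted p under 0.05 for 1 after saline, 4 after LPS and 1 in the interaction.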

How the data were processed

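Gene expression was measured on Affymetrix arrays from biotinylated cRNA, 1 array for each of 16 samples. RMA is named in the submitters' processing notes as the tool behind the deposited log2 values, 1 per probe set. The version is not given in the sources used here, and no scanner files were used, so the log2 scale rests on the labels and the range of the values. Precision is set by how many arrays a group has.

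Among 45101 probe sets, 34945 named a single gene, 932 several and 9160 none here, and 64 were controls. Symbols follow the RefSeq table (GRCm38.p6) for the 34741 single-gene probe sets that matched it by Entrez identifier, and the platform annotation otherwise. The probe set with the highest mean stood for each gene, which gave 18193 genes. The 4 group means were estimated jointly from the 16 arrays by limma 3.58.1 under R 4.3.3 (moderated variances with an intensity trend, 12 residual degrees of freedom). P-values are two-sided, Benjamini-Hochberg adjusted over all genes tested, and called under 0.05. Errors beside changes are limma standard errors. Like the p-values, they rest on a spread per gene estimated over all 4 groups and not on the groups compared alone. SD is over the 4 arrays of a group. The fit was tested on simulated data. The members, lists and tests were chosen with earlier results of these data known. Any member could be named. Those with the 3 largest changes of a role in either LPS comparison are given in full, and among the other pathway genes the 4 largest called rises and falls are named. Tlr4, Map3k7, Nfkbia and Nfkbie were given in full after their values had been seen. Promoters were searched on both strands for the kB consensus, taking the most upstream start of a gene and the 250 bases before it.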

Additional observations from a re-analysis of the deposited data

Results flagged for a closer look

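In each of 136 sets of 4 arrays (34 members in 4 groups) the distance of the highest or lowest array from its nearest neighbour was compared with the range of the set, and 8 sets had an array farther off than Dixon's 95% limit for 4 values allows. Chance alone gives about 1 in 20 such sets. Tlr4 on knockout LPS array 2 was 5.58 against 7.05 to 7.19 on the other arrays of the group. On the same array Irak1 was 8.60 against 8.17 to 8.22, and Map3k7 was 7.89 against 8.37 to 8.42. On wild-type LPS array 4 Map3k7 was 7.26 against 8.43 to 8.55 and Irak3 was 7.38 against 7.65 to 7.69. Nfkb2 on knockout LPS array 3 was 7.64 against 7.76 to 7.78. Nfkbia was 11.05 on wild-type saline array 1, against 10.75 to 10.80, and 11.29 on knockout saline array 1, against 10.85 to 10.90. No member moved in opposite directions on all LPS arrays of the 2 genotypes.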

How the results depend on the processing

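The counts of called members stayed within 1.5 times of those given in all 30 settings tried for each comparison (29 for the interaction). Leaving out 1 array at a time gave 21 to 25 members in wild-type and 23 to 26 in knockout hearts, and the other settings 20 to 26 and 21 to 26. The genotype comparisons and the interaction gave 0 in every setting run. Of the called members, 20 of 23 in wild-type and 22 of 24 in knockout hearts were called in every setting that gave them a value. The exceptions were Tlr1, Ikbkg and Rela in wild-type hearts (Rela had an adjusted p of 0.0599 without wild-type saline arrays 1 and 4 together) and Ticam1 and Ikbkb in knockout hearts. No called change turned its sign. The fall of Map3k7 was called in 5 and 4 of 29 settings, in wild-type and knockout hearts. With a replicate block for the number in the labels, 22 and 24 members were called, all of them also without the block. Of 24 same-numbered pairs of arrays, 3 had deviations that correlated over 0.1, so the numbers were not taken to pair the samples. Leaving out wild-type saline arrays 1 and 4 and wild-type LPS array 4 together, chosen after seeing the data, gave 22 and 26. Centring the arrays or quantile normalizing them again moved the median change of all genes by under 0.1. The filter on dim genes kept 32 members, without Tlr1 and Ly96. The planned comparison of marker list levels with and without those arrays was not run as a separate setting, and the levels are given by array in its place. With 4 arrays a group, dim probe sets and wide spreads among the LPS arrays limit the size of the changes that could be told from 0.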
